A study of Mus musculus with 2 samples.

Results

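The vacuolar ATPase (V-ATPase) genes, the lysosomal cathepsins and the genes for LAMP-1 and LAMP-2 were examined in RNA from adult mouse cortex. Members were all genes whose symbol starts with Atp6v0 or Atp6v1, the accessory genes Atp6ap1 and Atp6ap2, every Cts gene with a single final letter, and Lamp1 and Lamp2, without pseudogenes and antisense genes. The rule found 45 of the 43346 gene rows: 11 genes of the membrane sector V0 with its accessory proteins, 13 of the cytosolic sector V1, 18 cathepsins, 2 Lamp genes and Atp6v1fnb. The last of these is a neighbour of Atp6v1f that the symbol rule takes in and that was given no subunit role here.

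The series holds 2 libraries of polyadenylated RNA above 200 nt, read from both ends with strand information. Both come from cortical plate tissue of C57BL/6J mice aged 8 weeks, with males and females pooled and the animals being littermates. No mutation or treatment is named, and the libraries are biological replicates 1 and 2 of a single group, so the values below give levels in this tissue and how far its 2 libraries lie apart. The labels do not say how many animals were pooled or whether the libraries share animals, so the spread between the libraries may be technical in part.

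The V-ATPase is a rotary proton pump: the V1 sector hydrolyses ATP in the cytosol, and the turning rotor drives protons through the ring of proteolipids in the V0 sector. In neurons the pump acidifies lysosomes and endosomes and also synaptic vesicles, where the proton gradient powers the uptake of transmitter. Cathepsins are proteases that mature and work in the acid lumen of the lysosome, and LAMP-1 and LAMP-2 are the heavily glycosylated proteins that line its membrane.

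The libraries held 91875460 and 92939474 expected counts, the reads per gene as estimated by the authors' program, which need not be whole numbers. Cortical neuron markers were high, with Camk2a, the kinase of excitatory synapses, at 956 TPM (a level per transcript length, scaled to a fixed total) in replicate 1 and 812 in replicate 2. Markers of neighbouring brain regions differed between the libraries. The 10 striatal markers summed to 148 TPM in replicate 1 and 438 in replicate 2, and all 10 were called higher in replicate 2. The 6 hippocampal markers summed to 42.2 and 30.4 TPM, with 5 called lower in replicate 2 and 1, Wfs1, called higher. Wfs1 alone held 22.07 and 23.55 TPM of these sums. The 8 oligodendrocyte markers were all called higher in replicate 2, with a median log2 ratio of 0.42. Mitochondrial genes took 32.6% of TPM in replicate 1 and 34.8% in replicate 2. TPM values were lower in replicate 2 by a median of 0.16 on the log2 scale over all tested genes (-0.16). The part of the mitochondrial genes in this shift was not tested. Differences between the libraries are therefore given below as ratios of expected counts after TMM scaling, and levels as TPM.

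Sequences are shown first for the places where these genes choose between exons. The 18-nt exon of Atp6v0a1, the gene for the main neuronal a subunit, lies on chr11:101049459-101049476 (GRCm38, plus strand) inside the coding region. It is printed in capitals between the last bases of the exon before and the first bases of the exon after, because most but not all junction reads included it.
Atp6v0a1 18-nt exon: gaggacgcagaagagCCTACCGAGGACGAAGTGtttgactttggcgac

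The 54-nt coding exon of Atp6v1h, the gene for the regulatory H subunit, lies on chr1:5101070-5101123 (GRCm38, plus strand). It is printed the same way, because most junction reads skipped it.
Atp6v1h 54-nt exon: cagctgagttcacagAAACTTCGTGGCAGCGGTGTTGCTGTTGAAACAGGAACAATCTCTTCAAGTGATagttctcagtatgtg

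Lamp2 ends in 1 of 3 alternative last exons, which give the proteins LAMP-2A, LAMP-2B and LAMP-2C with different membrane-spanning parts and tails. The last 48 coding bases before the stop codon are shown for each, with the last 5 codons, where the tyrosine-based lysosomal sorting signal of this family lies, in capitals. The exons lie on the minus strand of GRCm38 at chrX:38419507-38421851 for LAMP-2B, chrX:38405062-38405571 for LAMP-2A and chrX:38401357-38402281 for LAMP-2C.
LAMP-2B: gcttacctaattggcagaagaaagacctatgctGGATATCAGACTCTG
LAMP-2A: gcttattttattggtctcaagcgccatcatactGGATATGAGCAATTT
LAMP-2C: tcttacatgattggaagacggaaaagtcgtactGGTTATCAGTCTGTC

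As a group the genes were abundant. Of the 45, 32 had a mean of at least 1 TPM and 17 of at least 100 TPM, and 13 lay below 1 TPM. Their summed level was 5707 TPM in replicate 1 and 5263 in replicate 2, or 0.571% and 0.526% of all TPM. On the scale of nuclear protein-coding genes alone the share was 1.07% and 1.09%, higher in replicate 2, and of all gene counts it was 0.654% and 0.658%. The V0 genes made up 2875 ± 153 TPM (SD, n = 2), the V1 genes 1693 ± 128, the cathepsins 660 ± 26.5 and the Lamp pair 256 ± 5.64.

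**Figure D1:**
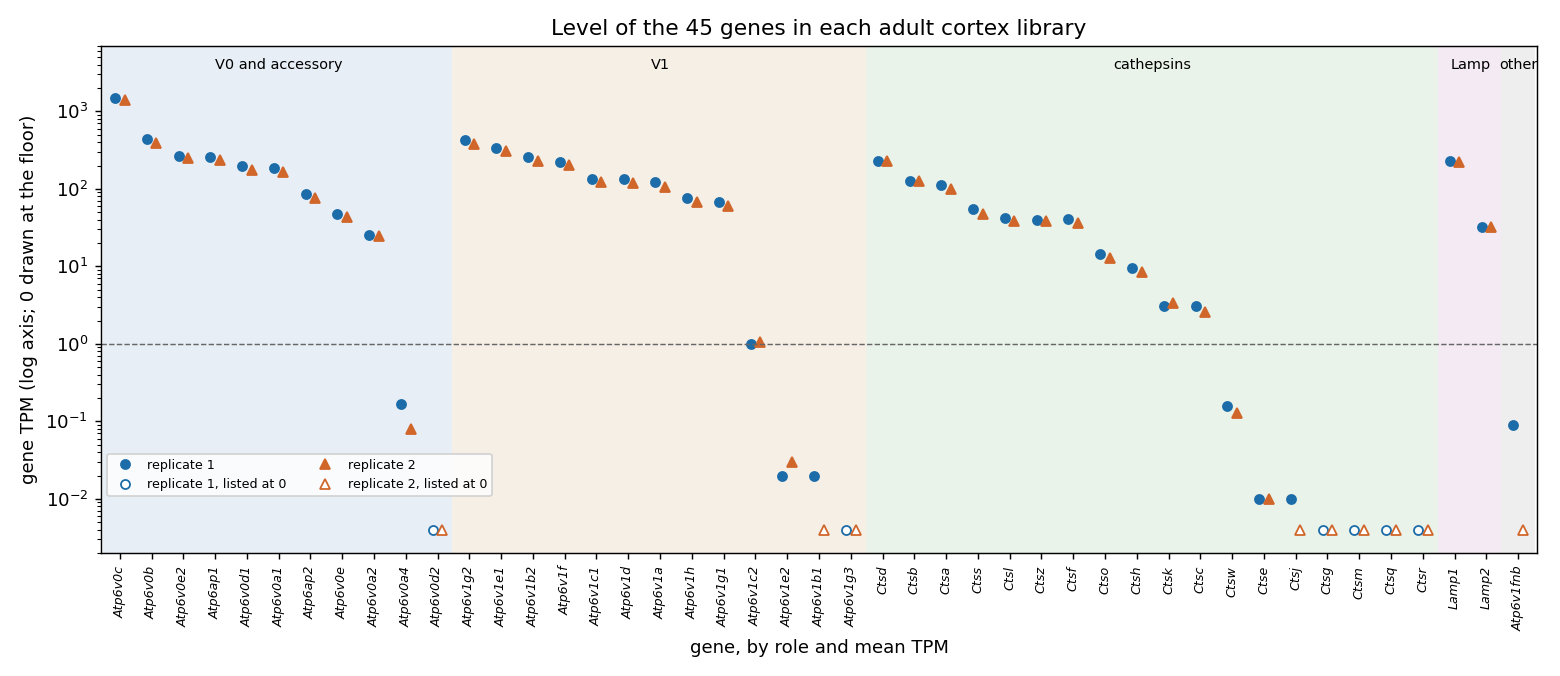
Level of each of the 45 genes in TPM (log axis) in replicate 1 (circles) and replicate 2 (triangles), ordered by role and mean; open symbols at the bottom are genes listed at 0, and the dashed line marks 1 TPM. Atp6v0c stands highest at 1477 and 1392 TPM, and 13 genes lie below the line.

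In the membrane sector the proteolipid Atp6v0c, which forms most of the proton-carrying ring, had 1477 TPM in replicate 1 and 1392 in replicate 2. Its mean of 1434 ± 59.7 TPM (SD, n = 2) put it at rank 12 of the 21461 nuclear protein-coding genes. A processed pseudogene, Atp6v0c-ps2, was listed with 1066 and 918.5 counts beside 85134 and 88110 for Atp6v0c, so the split of reads between them is uncertain. The second proteolipid, Atp6v0b, the c'' subunit of the same ring, had 437 and 396 TPM. Atp6v0c exceeded it 3.45-fold on average, with a log2 ratio of 1.78 ± 0.04 in both libraries together.

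Among the small e subunits, Atp6v0e2 had 266 and 254 TPM and Atp6v0e 47.2 and 42.9. Atp6v0e2 thus carried 85.2% ± 0.41 of the e subunit's TPM (SD, n = 2). Atp6v0d1, the widely expressed d subunit that couples the ring to the central stalk, had 198 and 177 TPM. Its paralog Atp6v0d2, known from osteoclasts and kidney, was listed at 0 in both libraries. Measured against a floor of 3 counts over both libraries, Atp6v0d1 was at least 11078-fold higher.

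The a subunits carry the proton path next to the ring and steer the pump to different membranes. Atp6v0a1 had 187 and 165 TPM, Atp6v0a2, a Golgi and endosome form, 25.3 and 24.7, and Atp6v0a4, the kidney form, 0.17 and 0.08. Tcirg1, the a3 gene, is not caught by the symbol rule; it had 18.8 and 19.0 TPM. Of the a subunit's TPM, Atp6v0a1 held 79.9% ± 1.28, Atp6v0a2 11.4% ± 0.62, Tcirg1 8.63% ± 0.68 and Atp6v0a4 0.056% ± 0.025 (SD, n = 2). The log2 ratio of Atp6v0a1 was 2.81 ± 0.10 over Atp6v0a2, 3.21 ± 0.14 over Tcirg1 and 10.55 ± 0.64 over Atp6v0a4. The last of these, which rests on few Atp6v0a4 counts, was 9.11 with posterior mean TPM, 9.64 with 0.1 TPM added and 8.73 in RPKM on mm9. The order of the a subunit genes was the same in both libraries.

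The accessory protein Atp6ap1, needed for assembly of the V0 sector, had 261 and 239 TPM. Atp6ap2, also known as the prorenin receptor, had 85.1 and 76.7. Both levels were within the range of the pump's own subunits.

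In the cytosolic sector the catalytic ring is built of alternating A and B subunits. Atp6v1a, the only A subunit gene, had 122 and 106 TPM, while Atp6v1b2, the brain B subunit, had 261 and 232. The A gene was lower than the B gene in both libraries, with a log2 ratio of -1.12 ± 0.02. The assembled ring holds the proteins in equal number. The other B gene, Atp6v1b1, a kidney and inner ear form, had 2 counts in replicate 1 and 0 in replicate 2.

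Of the stalk subunits, Atp6v1e1 had 342 and 311 TPM, and its testis paralog Atp6v1e2 had 1 and 2 counts. Atp6v1g2, the neuronal G subunit, had 425 and 378 TPM. Atp6v1g1, the ubiquitous form, had 67.8 and 60.6, and Atp6v1g3, known from kidney, was listed at 0 in both libraries. Atp6v1g2 held 86.2% ± 0.055 of the G subunit's TPM (SD, n = 2), a log2 ratio over Atp6v1g1 of 2.64 ± 0.01. Over Atp6v1g3 it was at least 31868-fold higher, against the same floor of 3 counts.

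Atp6v1f and Atp6v1d, parts of the central shaft, had 220 and 203 TPM and 134 and 119.8 TPM. Atp6v1c1, the C subunit that locks V1 onto V0, had 134 and 124, and its tissue-restricted paralog Atp6v1c2 had 1.00 and 1.06. Atp6v1c1 carried 99.2% ± 0.076 of the C subunit's TPM, with a log2 ratio over Atp6v1c2 of 6.97 ± 0.14. Atp6v1h, the H subunit, had the lowest level of the V1 subunits at 75.4 and 68.0 TPM, when the genes of each subunit are summed.

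Summed by subunit, the proteolipid c led with 1434 ± 59.7 TPM, followed by G with 466 ± 38.7, c'' with 417 ± 29.1, E with 327 ± 22.3 and e with 305 ± 12.2 (SD, n = 2). These SDs hold the general shift of TPM between the libraries. B (246.6 ± 20.99), a (220 ± 15.9), F (212 ± 12.3) and d (188 ± 14.5) came next with overlapping SDs, in this order in each library. C (130 ± 7.11), D (127 ± 10.2) and A (114 ± 11.6) lay together below them, with H at 71.7 ± 5.23. For every subunit that has several genes, 1 paralog held over 79% of the TPM in each library, as the plot of levels and shares by subunit shows.

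**Figure D2:**
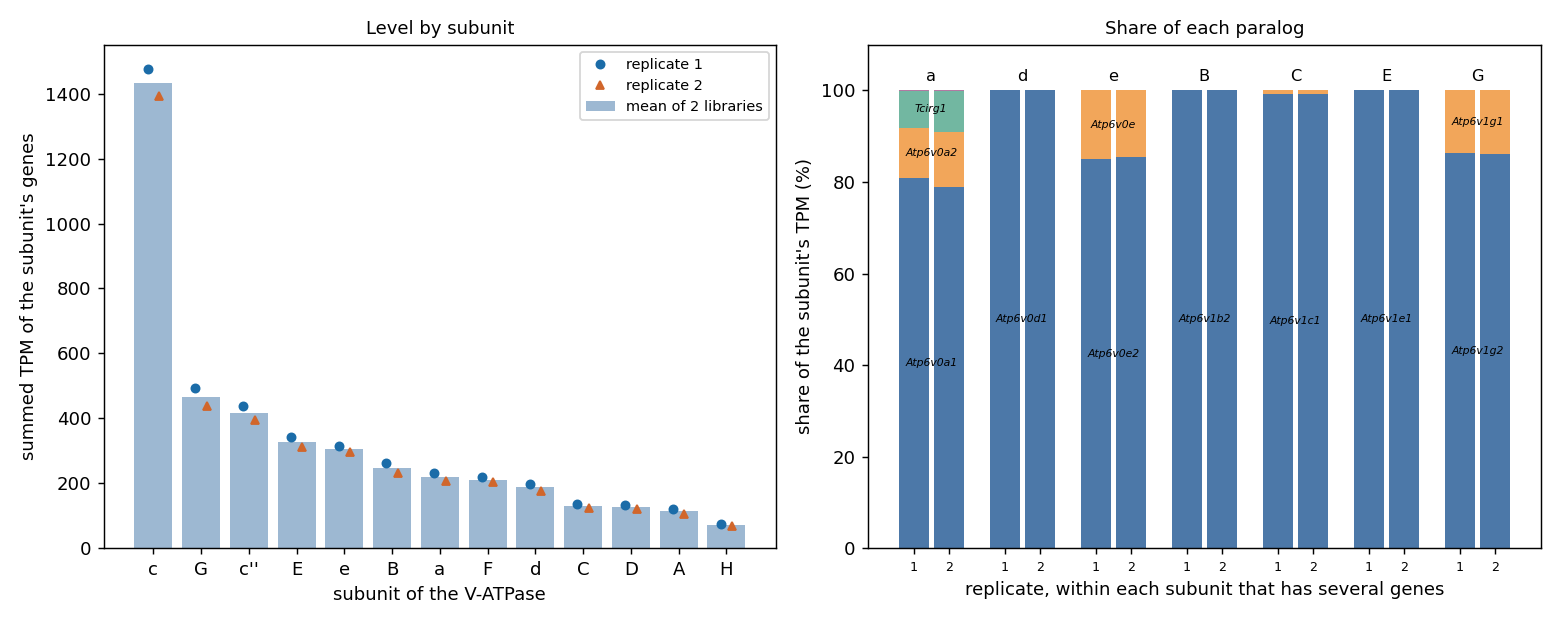
Left, summed TPM of the genes of each V-ATPase subunit, with bars for the mean of 2 libraries and points for each library; right, the share in percent of each paralog within the subunits that have several genes, for replicates 1 and 2. Subunit c stands at 1434 TPM, and the leading paralogs of a, e and G hold 79.9%, 85.2% and 86.2% of their subunit.

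The cathepsins were led by Ctsd, the aspartic protease of the lysosome, with 232 TPM in replicate 1 and 227 in replicate 2. Ctsb, a cysteine protease that also trims peptides from their ends, followed with 128 and 127. The log2 ratio of Ctsd over Ctsb was 0.84 ± 0.02. Ctsa, a serine carboxypeptidase that protects beta-galactosidase and neuraminidase in the lysosome, had 111.5 and 98.5 TPM.

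The next level was held by 4 cysteine cathepsins. Ctss, a protease made in brain mainly by microglia, had 54.8 and 47.2 TPM, Ctsl, a broad endopeptidase, 42.1 and 39.0, Ctsz, a carboxypeptidase, 39.4 and 39.0, and Ctsf 40.5 and 36.1. Ctsl was lower than Ctss in both libraries on the TPM scale, at -0.33 ± 0.07, but higher by 0.29 without division by length and by 0.15 in RPKM on the older assembly. Ctsb exceeded Ctsl by 1.66 ± 0.07 and Ctsz by 1.70 ± 0.005 on the log2 scale. Ctsl lay above Ctsf in both libraries. Ctsz lay below both of them in replicate 1 and above both in replicate 2, where it had 39 TPM against 38.96 for Ctsl. These differences were not tested.

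Lower still were Ctso with 14.51 and 13.01 TPM, Ctsh, an aminopeptidase, with 9.60 and 8.57, Ctsk, the osteoclast collagenase, with 3.07 and 3.39, and Ctsc, which activates serine proteases of leukocytes, with 3.12 and 2.62. The remaining 7 cathepsins lay at or below 0.16 TPM. Ctsw, a gene of cytotoxic lymphocytes, had 11 and 10 counts. Ctse, the other aspartic cathepsin, had 1 count in each library, and Ctsj had 1 and 0. Ctsg, a neutrophil protease, and Ctsm, Ctsq and Ctsr, which belong to the rodent placental cluster, were listed at 0 in both libraries.

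Lamp1 had 228 and 220 TPM and Lamp2 32.0 and 32.6. Lamp1 was higher by 2.80 ± 0.06 on the log2 scale, or 6.94-fold. In all, the 18 pairs of related genes compared had the first gene higher in both libraries in 16 cases, and the exceptions were Atp6v1a against Atp6v1b2 and Ctsl against Ctss. Which gene stands first was set when the pairs were listed for this report, so the count depends on that order.

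Of the 45 genes, 34 had at least 10 counts over both libraries and were tested between them, 11 did not, and 6 of those were at 0 in both. The exact two-sided binomial test compares these 2 libraries only, not conditions, and its intervals hold counting error alone: PCR copies cannot be recognised without molecular identifiers. With an adjusted p under 0.05, it called 13 of the 34 (38.2%), against 28.7% of all 19829 genes tested and 38.5% of those with at least 1000 counts. Of the 29 members with at least 1000 counts, 12 were called; these genes were not matched more closely on depth.

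Higher in replicate 2 were 11 members, against 14.8% of all tested genes, and 2 were lower, against 13.9%. None of the 13 changed direction with plain totals in place of TMM factors, but on deposited TPM, without correction for the shift between the libraries, 2 of the 11 were higher. After subtraction of the all-gene median of the TPM ratio, 13 of the 13 had the direction of the count ratio. With plain totals 33.2% of all called genes were higher in replicate 2 in place of 51.5%, and the members split into 8 higher and 5 lower. No member was called at a difference of at least 1.5-fold, against 4.37% of all tested genes. With a common dispersion (edgeR's exact test) no member passed the threshold and 0 members had an unadjusted p under 0.05, against 1.31% of all tested genes called. That dispersion was estimated from the same 2 libraries taken as 1 group, so the differences between them entered it as noise. The test therefore cannot decide on differences as small as those of the members. The median log2 ratio of the members was 0.01, against 0.003 over all tested genes, and the median of its size without sign was 0.03 against 0.11. At least 1000 counts were held by 29 of the 34 tested members and by 11543 of the 19829 tested genes. The values for all tested genes in this paragraph were not matched to the members on depth, and counting error alone widens ratios at low counts.

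The called V0 members were Atp6v0c, Atp6v0e2, Atp6v0a2 and Atp6ap1. Atp6v0c went from 85134 to 88110 counts, a ratio of 1.06 (95% interval 1.05 to 1.07, adjusted p = 1.1e-27 by the exact binomial test). Atp6v0e2 had a ratio of 1.06 (1.04 to 1.08), Atp6v0a2 of 1.09 (1.05 to 1.13) and Atp6ap1 of 1.04 (1.02 to 1.05), which was not called with plain totals. Of the V1 members, Atp6v1c1 was higher, at 1.03 (1.01 to 1.05), a call lost with plain totals and with relative log expression factors. Atp6v1a was lower, at 0.9652 (0.9503 to 0.9803, adjusted p = 6.9e-05 by the exact binomial test), and so was Atp6v1b2 at 0.984 (0.971 to 0.997), with an adjusted p of 0.0492 by that exact test.

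The called cathepsins were all higher in replicate 2. Ctsb went from 39377 to 42859 counts, a ratio of 1.11 (1.10 to 1.13, adjusted p = 1.2e-48 by the exact binomial test). Ctsd went from 30039 to 32058, a ratio of 1.09 (1.07 to 1.11). Ctsz followed at 1.10 (1.05 to 1.15). Ctsk, with 266 and 321 counts, reached 1.23 (1.04 to 1.45), with an adjusted p of 0.0466 by that exact test, and lost the call with plain totals, with relative log expression factors and with a minimum of 1 count. Both Lamp genes were higher, Lamp1 at 1.07 (1.06 to 1.09) and Lamp2 at 1.13 (1.09 to 1.17).

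The other members did not pass the threshold. For the 31 members with at least 500 counts, log2 ratios ran from -0.06 (Ctss, adjusted p = 0.136 by the exact binomial test) to 0.30 (Ctsk). Atp6v0b, Atp6v0d1, Atp6v0a1, Atp6ap2, Atp6v1g2, Atp6v1e1, Atp6v1f, Atp6v0e, Atp6v1d, Atp6v1g1, Atp6v1h, Ctsa, Ctsc, Ctsf, Ctsh and Ctso lay between -0.02 and 0.02, and Ctsl at 0.04. The small differences of 7 members, among them Atp6v0b and Atp6v1h, changed sign with plain totals. Atp6v0a4, with 26.8 and 15.3 counts, had a ratio of 0.591 with a wide interval of 0.280 to 1.10.

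**Figure D3:**
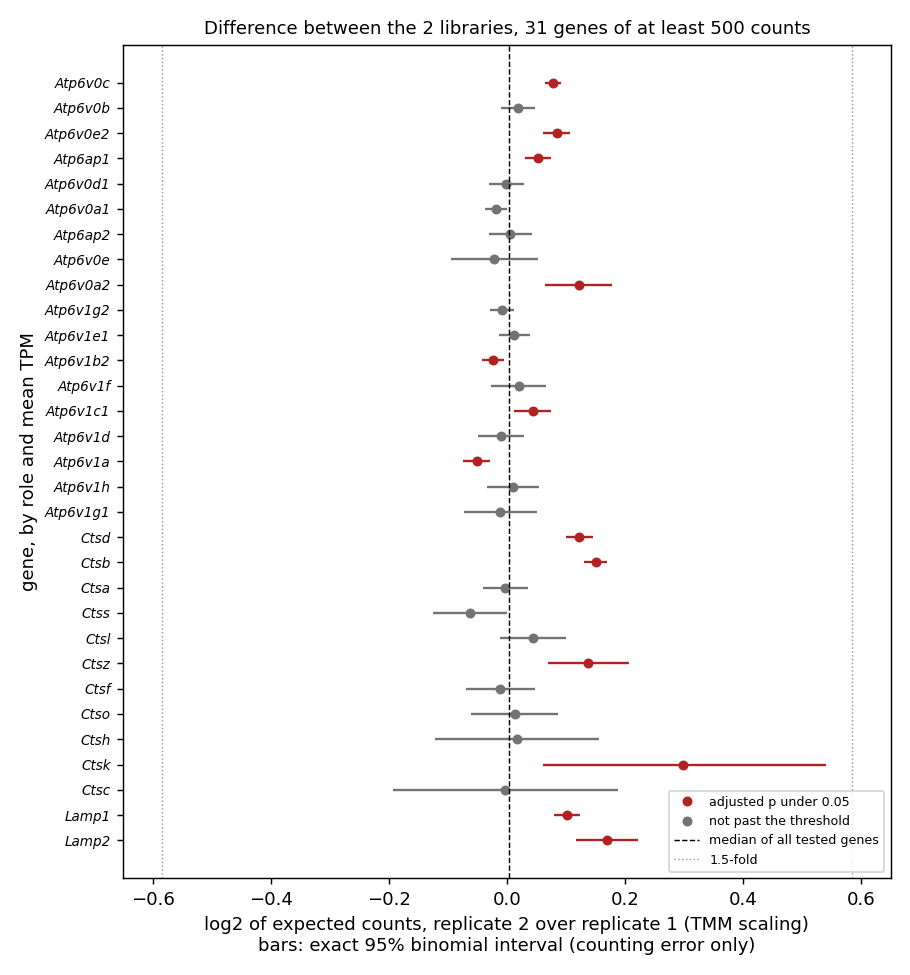
Log2 ratio of expected counts, replicate 2 over replicate 1 after TMM scaling, for the 31 genes with at least 500 counts, with 95% exact binomial intervals; red marks an adjusted p under 0.05, the dashed line the median of all tested genes and the dotted lines 1.5-fold. The points run from -0.06 for Ctss to 0.30 for Ctsk, all inside the dotted lines.

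Cell type markers moved between the libraries beside these genes. The oligodendrocyte list summed to 3662 and 4454 TPM and the striatal list to 148 and 438. The microglial list, 12 genes led by C1qb and C1qa, summed to 379.6 and 333 TPM, with 0 called higher and 3 lower and a median log2 ratio of -0.06. The 10 excitatory markers summed to 3139 and 2697 TPM, with 6 called lower and a median log2 ratio of -0.06. The TPM sums in this paragraph hold the general shift of TPM between the libraries, which the ratios do not. Of all tested genes 28.7% were called in either direction. Of the 8 astrocyte markers 6 were called higher and 1 lower, and of the 10 pan-neuronal markers 5 and 2. The 7 inhibitory neuron markers had 3 higher and 0 lower, with a median log2 ratio of 0.10. The 6 meningeal fibroblast markers had 4 higher and 0 lower, with a median of 0.21 and sums of 54.6 and 58.9 TPM. The 6 choroid plexus markers had 4 higher and 1 lower, with a median of 0.92 and sums of 16.6 and 21.7 TPM. The 6 endothelial markers had 1 higher and 0 lower, and the 6 perivascular macrophage markers 0 and 0. Genes of other leukocytes, where Ctsw and Ctsg are known, summed to 2.63 and 2.69 TPM over 12 genes. The part of these cells in the differences of the cathepsins, Lamp genes and pump subunits was not tested, and in bulk tissue fewer cells of a type and less RNA per cell cannot be told apart.

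Related genes of the pathway were counted in the same test. It called 14.8% of all tested genes higher and 13.9% lower, or 28.7% in either direction. Of genes with at least 1000 counts it called 38.5%. The lists were not matched to these genes on depth, and the counts are not a result about a list. Of the genes for assembly and regulation of the pump, 19 of 20 were tested, with 3 higher and 4 lower in replicate 2 (36.8% called). The most abundant were Rnasek, a small pump-associated protein, with 180.5 and 166.6 TPM, and Rogdi, a homologue of a regulator of the pump in yeast, with 123 and 103. Rogdi was lower at a ratio of 0.899 (0.872 to 0.928), and Tbc1d24, a TLDc protein of synapses, at 0.899 (0.877 to 0.921), the largest difference of the called genes in this list.

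Cystatins and other cathepsin inhibitors had 8 of 11 genes tested, 4 higher and 1 lower (62.5% called). Cst3, the secreted cystatin C, had 2676 and 2714 TPM, above any cathepsin in both libraries, and a ratio of 1.12 (1.11 to 1.13). Cstb, the cytosolic cystatin B, had 37.9 and 38.5 TPM and a ratio of 1.11 (1.02 to 1.21). Serpina3n, a serpin of reactive astrocytes, had 1354 and 662 counts, a ratio of 0.499 (0.454 to 0.548), and was the list's lower gene.

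All 38 other lysosomal hydrolases and activators were tested, with 9 higher and 3 lower (31.6% called) and a median log2 ratio of 0.02. Psap, the precursor of the saposins, had 1034 and 967 TPM, and Pld3, an exonuclease of lysosomes, 659 and 586. Galns, a sulfatase, differed the most of the called genes, at 0.804 (0.721 to 0.896).

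Of the other lysosomal membrane proteins, 26 of 27 were tested, with 9 higher and 0 lower. That is 34.6% called, against 28.7% of all tested genes and 38.5% of those with at least 1000 counts. Lamp5, a brain form of the LAMP family, had 205 and 209 TPM and a ratio of 1.13 (1.11 to 1.15). Laptm4a had 131 and 119.7 TPM and did not pass. Npc1, the cholesterol exporter, had 19.3 and 19.9 TPM and a ratio of 1.155 (1.118 to 1.195).

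Sorting receptors and adaptors had 12 of 12 genes tested, with 2 higher and 0 lower (16.7% called). Sort1, sortilin, had 111.4 and 99.3 TPM, and Vps29, a retromer subunit, 95.8 and 90.3, and neither passed. M6pr, a mannose 6-phosphate receptor, had 40.2 and 38.8 TPM and a ratio of 1.08 (1.04 to 1.12). Among the MiT/TFE factors, which drive lysosomal genes, Tfe3 had 11.3 and 10.6 TPM and Tfeb 6.21 and 5.47. Of the 3 tested none passed. The ratio was 1.04 (0.984 to 1.11) for Tfe3 and 1.089 (0.9857 to 1.203) for Tfeb. Mitf, named to complete the count, lay the other way at 0.930 (0.835 to 1.036).

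The transporters and partners that use the pump's gradient in synaptic vesicles had 9 of 9 genes tested, with 3 higher and 3 lower (66.7% called). This list shares Syp, Slc17a7 and Slc32a1 with the neuronal marker lists. Syp, synaptophysin, had 623 and 548 TPM and a ratio of 0.978 (0.970 to 0.987). Slc17a7, the vesicular glutamate transporter of cortical neurons, had 572 and 479 TPM and a ratio of 0.935 (0.927 to 0.943). Slc18a3, the vesicular acetylcholine transporter, had 27 and 61 counts and a ratio of 2.28 (1.44 to 3.77). The other genes called higher in replicate 2 were Slc32a1, the vesicular GABA transporter, at 1.19 (1.16 to 1.23), and Slc17a6, a second glutamate transporter, at 1.17 (1.09 to 1.26); they are named to complete the count.

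Transcript shares were read for the 28 members with at least 10 TPM. A single transcript was listed for 11 of them, and in 23 the leading transcript held at least 80% of the gene's TPM. The leading transcript held under 60% in 3: Atp6v0b, Ctsa and Lamp2. For Atp6v0b, the coding transcript Atp6v0b-201 held 52.6% and 54.6%, and Atp6v0b-204, annotated as a retained intron, 25.9% and 24.0%. The leading transcript of Ctsa held 48.6% and 49.3%, and all retained-intron transcripts of Ctsa together 25.2% in replicate 1 and 20.7% in replicate 2. These retained-intron models are short, and their share of TPM is a share per length.

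Junction reads in a pair of columns on the mm9 assembly, called R1 and R2 here because the sources used do not tie them to a replicate, gave 240 internal exons in 30 of the genes. Of these, 227 scored an inclusion of at least 99% of informative reads, 13 less, and 7 less than 95%. Of the 7, 3 are versions of a single Ctsa exon with different starts, scored at 83.2% to 84.1%. The score takes the mean of the reads joining an exon to the exons before and after it. For this Ctsa exon nearly all such reads lay after it, 701 in R1 and 830 in R2. Of the reads from the donor before it, 91.8% in R1 (67 of 73) and 89.4% in R2 (84 of 94) skipped it, so the score overstates its inclusion from that donor. Versions of an exon that share an end were counted as separate exons, and only reads skipping the exon lower the score. The score therefore does not show which version was used. Versions of 104, 86 and 83 nt of an Atp6v0a1 exon all scored 100% in both columns. From the donor before this exon, 1103 of 1161 reads in R1 and 1108 of 1183 in R2 joined the 83-nt version. Exons were tied between mm9 and GRCm38 by the lengths of the exon and its introns.

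The 18-nt exon of Atp6v0a1, whose sequence is given above, was included in 95.1% of reads in R1 (exact 95% interval 94.1 to 95.9) and 93.6% in R2 (92.6 to 94.5), with 116 and 154 reads skipping it. It was the only internal exon of these genes of at most 27 nt. In the transcript tables Atp6v0a1-201, which holds the exon, had 81.9% and 80.8% of the gene's TPM, and the main transcript without it 10.1% and 11.3%. Junctions and transcripts put the form with the exon first in both columns and both libraries.

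The 54-nt exon of Atp6v1h was included in 18.8% of reads in R1 (16.4 to 21.4) and 15.3% in R2 (13.1 to 17.8), with 803 and 779 reads skipping it. Atp6v1h-204, which lacks the exon, held 61.3% and 61.8% of the gene's TPM and Atp6v1h-201, which has it, 28.2% and 29.2%. Both readouts put the shorter form first, and the share of the longer form was higher in the transcript tables than in the junction reads.

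The last exon of Lamp2 was that of LAMP-2B in 40.2% of reads in R1 (100 of 249; 34.0 to 46.5) and 45.1% in R2 (111 of 246; 38.8 to 51.6). LAMP-2A, the form known from chaperone-mediated autophagy, took 28.5% (23.0 to 34.6) and 29.3% (23.7 to 35.4), and LAMP-2C 31.3% (25.6 to 37.5) and 25.6% (20.3 to 31.5). LAMP-2B was first in both columns, and the intervals of LAMP-2A and LAMP-2C overlapped. In the transcript tables the LAMP-2B form held 45.6% ± 0.77, the LAMP-2A form 26.9% ± 0.95, and the LAMP-2C form 25.0% ± 0.10 (SD, n = 2). The LAMP-2A form was above the LAMP-2C form in both libraries by this measure.

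**Figure D4:**
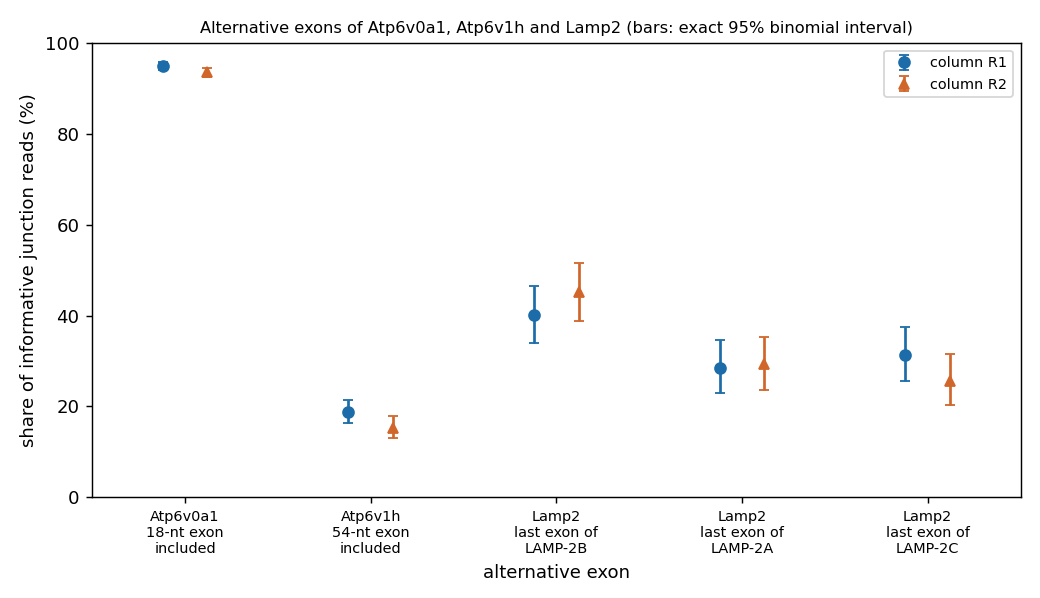
Share of informative junction reads in percent, with exact 95% binomial intervals, for the mm9 columns R1 (circles) and R2 (triangles): inclusion of the 18-nt Atp6v0a1 exon, inclusion of the 54-nt Atp6v1h exon, and use of the 3 last exons of Lamp2. The Atp6v0a1 exon lies at 95.1% and 93.6%, the Atp6v1h exon at 18.8% and 15.3%, and LAMP-2B leads the Lamp2 ends at 40.2% and 45.1%.

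Further choices were seen in Atp6v1a, Ctss, Atp6ap1 and Atp6v1g2. Atp6v1a used a pair of donor sites 14 nt apart before the same acceptor, at 67.2% and 64.1% for the first and 32.2% and 35.5% for the second. Ctss used acceptors 3 nt apart, at 89.7% and 94.1% against 10.3% and 5.87%. A 63-nt exon of Atp6ap1 was included in 0.78% and 0.75% of reads. A 71-nt exon of Atp6v1g2 was included in 53.5% (37.7 to 68.8) and 43.3% (24.7 to 59.3), with 20 and 19 reads skipping it. These shares rest on few reads, with 23.0 including the exon in R1 and 14.5 in R2. A later exon of the same gene had 3073.5 and 2791.5 such reads. The shares of the 71-nt exon are therefore not shares of all Atp6v1g2 transcripts.

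Promoters were read from RefSeq (GRCm38.p6), from 250 bases before to 50 after each start site. The table held 35 of the 45 members. The hexamer CACGTG, which reads the same on both strands and is the core of the element bound by the MiT/TFE factors, was found in 9 of the 35 (25.7%), against 8.09% of the 27025 genes in the table. All 9 were among the 25 members with at least 1 TPM (36.0%), where 11.7% of all genes at that level held it. Of the 10 members below 1 TPM, 0 did. With 8.09% of all genes holding the hexamer, 10 genes are too few for a comparison. The longer TCACGTGA, which contains the hexamer, was found in 5 of the 35 members (14.3%) and 1.12% of all genes in the table. The genes with the hexamer were Atp6v0b, Atp6v0d1, Atp6v0e, Atp6v1a, Ctsa, Ctsd, Ctsf, Ctsl and Lamp1.

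Of these, Lamp1 held 4 copies and Atp6v0b 2 within 100 bases before the start site. They are shown because they hold the hexamer repeatedly and belong to abundant members, with the copies in capitals. The Lamp1 stretch is chr8:13159061-13159160 on the plus strand and the Atp6v0b stretch chr4:117887340-117887429 on the minus strand. A match describes the letters in the window, not binding.
Lamp1 promoter: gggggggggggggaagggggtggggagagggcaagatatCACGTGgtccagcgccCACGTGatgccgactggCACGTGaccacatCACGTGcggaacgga
Atp6v0b promoter: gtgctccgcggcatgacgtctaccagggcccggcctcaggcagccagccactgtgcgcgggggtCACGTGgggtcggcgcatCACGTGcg

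Atp6v0a4, with 26.8 and 15.3 counts, overlaps D630045J12Rik on the same strand, with 7162 and 7249 counts, which strand cannot separate. Several other members overlap a gene on the opposite strand, and whether the authors' counting used strand is not given in the sources used here. Ctsa, with 11064 and 10829 counts, overlaps Pltp, with 9542 and 10426. Ctsb overlaps Fdft1, with 7156 and 7375 counts, Atp6v1e1 overlaps Slc25a18, with 5441 and 6101, and Ctsz overlaps Nelfcd, with 4250 and 4165. Atp6v1c2, with 73 and 87 counts, overlaps the far more abundant Pdia6, with 5669 and 6242, and Ctsw overlaps Fibp, with 2772 and 2866. The values of these members, those of Atp6v0a4, Atp6v1c2 and Ctsw above all, are uncertain to that extent. In RPKM on mm9 Ctsa had 19.1 in one column and 11.5 in the other, a wider gap than its 111.5 and 98.5 TPM on GRCm38.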

How the data were processed

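Per the file headers, the authors' mm10 tables give expected counts, TPM and, for transcripts, the percent of the gene, with release 4 of the GENCODE annotation; the program is not given in the sources used here. The deposited mm9 tables (Ensembl 65) give RPKM per gene and junction read counts, in columns not tied to replicates. Symbols and positions came from GENCODE release 21, which matched 98.0% of gene rows.

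Expected counts were rounded and tested by an exact two-sided binomial test with TMM factors of 1.012 and 0.988 (edgeR 4.0.16, R 4.3.3). Genes with at least 10 counts were tested, p was adjusted by Benjamini-Hochberg over all of them, and log2 ratios added 0.5 counts. The common coefficient of variation was 0.0905. Junction shares needed 20 informative reads per column.

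Members and lists were chosen with earlier results of these data known. Members of at least 1 TPM were named with their values, the rest by counts unless they belong to a pair of related genes compared; of each pathway list, the 2 most abundant genes and the called gene with the largest log2 ratio were named. The minimum of 500 counts, the 79% mark and the overlapping genes were chosen after values were seen. A quasi-likelihood test was not made, since there is 1 group. Assembled transcripts, contigs and exon tables were not used here. The test was run on simulated data drawn with counting error alone, which is what it assumes. That run cannot show how the test behaves where libraries differ by more than counting error.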

Additional observations from a re-analysis of the deposited data

How the results depend on the processing

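The count of 13 members called between the libraries was 11 to 13 with plain totals, relative log expression factors and minimum counts of 1 or 50. It was 0 with edgeR's exact test and 0 with the added demand of a 1.5-fold difference. The median log2 ratio of 0.013 became -0.0207 with plain totals and -0.1456 on deposited TPM. With plain totals, uncalled members changed sign: Atp6v0b (-0.0141), Atp6ap2 (-0.0278), Atp6v1e1 (-0.0212), Atp6v1f (-0.0133), Atp6v1h (-0.0235), Ctso (-0.0202) and Ctsh (-0.0171). With relative log expression factors Atp6ap2 did (-0.0009). Plain totals added Atp6v0a1, Atp6v1g2 and Ctss to the lower calls; relative log expression factors added Atp6v0a1; a minimum of 1 count lost Atp6v1b2 and Ctsk.

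The members' share of TPM, 0.549%, was 1.08% over nuclear protein-coding genes and ranged from 0.526% to 0.571% with either library left out. The counts of 32 members of at least 1 TPM and 3 with a leading transcript under 60% were the same under each alternative run. First genes were higher in 16 of 18 pairs under all alternatives except RPKM (17). Ctsl over Ctss became 0.29 and Ctsd over Ctsb -0.40 without division by length, and Ctsl over Ctss 0.15 in RPKM. Without division by length, the ratio also moved by over 1.5-fold, to log2 values given here, for Atp6v0a1 over Tcirg1 (4.29), Atp6v0e2 over Atp6v0e (3.32), Atp6v1c1 over Atp6v1c2 (7.76), Atp6v1a over Atp6v1b2 (-0.49), Ctsb over Ctsl (3.02) and Ctsb over Ctsz (3.58). Of the internal exons, 6 of 232 lay under 95% with at least 50 reads and 6 of 248 with all junctions, against 7 of 240. No paired analysis was possible because the series has a single group. With 2 libraries, no permutation test can reach the threshold.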

Other observations

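Junctions outside the annotation flag added exons to these genes on mm9. A 75-nt exon of Atp6v0a1 at chr11:100906750-100906824 (plus strand) was included in 9.6% of reads in R1 and 9.04% in R2, with 1887 and 2007 reads skipping it. A 103-nt exon of Atp6v0e at chr17:26831424-26831526 (plus strand) was included in 2.96% and 4.13%, with 476 and 569 reads skipping it.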
